A study of Mus musculus with 6 samples.

Results

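The AP-1 transcription factors examined here are 9 genes, Fos, Fosb, Fosl1, Fosl2, Jun, Junb, Jund, Atf3 and Batf, taken by their Ensembl mouse identifiers from a count table of 57180 genes. All 9 were found, and all 9 passed the filter on low counts, as did 23053 genes in all. RNA was sequenced from adipose tissue macrophages, which the study's design text describes as sorted on F4/80 and CD11b. The source was white adipose tissue of wild-type (WT) mice. There were 3 libraries labelled HFD, for a high-fat diet, and 3 labelled HFD+MGIG, for the same diet with magnesium isoglycyrrhizinate, the magnesium salt of an isomer of the liquorice compound glycyrrhizic acid. Every mouse was thus on the diet, and no group on another diet was used here. The labels give no age, sex, dose, duration or batch. Their extraction protocol speaks of RNA from the tissue rather than from sorted cells. Nor do they tie a library to a single animal. The p-values therefore cover only how far these libraries differ from one another, and that spread may be technical.

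AP-1 is a dimer of basic leucine zipper (bZIP) proteins. Jun proteins pair with one another or with Fos, ATF and BATF proteins, and the pair binds short DNA elements of the TRE and CRE type. Many of these genes are immediate early genes: growth factors, cytokines and stress act through MAP kinases, serum response factor and CREB to switch them on before any new protein is made. In macrophages AP-1 takes part in inflammatory gene control, and the enzymatic and mechanical steps that free cells from a tissue also induce Fos, Jun and Atf3.

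In build mm10 with GENCODE M21, the genes on the plus strand lay with Batf at chr12:85686669-85709087, Fos at chr12:85473890-85477273, Fosl1 at chr19:5447547-5455946, Fosl2 at chr5:32135801-32157842 and Jund at chr8:70698949-70700616. Those on the minus strand lay with Atf3 at chr1:191170296-191218039, Fosb at chr7:19302696-19310051, Jun at chr4:95049034-95052222 and Junb at chr8:84974484-84978718. Fos and Batf are thus on one chromosome, as are Junb and Jund. Jun and Jund each have a single exon block.

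The promoters of Fos, Jun and Junb are shown because these 3 genes were among the most abundant members, their printed stretch holds no annotated exon, and short elements of the CRE and TRE type are the letters through which such genes are known to be switched on. Each line is the 200 bases just before the RefSeq start, read 5′ to 3′ on the gene's strand from build GRCm38.p6, at chr12:85473690-85473889 (plus strand) for Fos, chr4:95052223-95052422 (minus strand) for Jun and chr8:84978749-84978948 (minus strand) for Junb. Capitals mark TGACG, the first letters of a CRE, the TATA box letters TATAAA, and in Jun the letters TGACATCA.
Fos promoter: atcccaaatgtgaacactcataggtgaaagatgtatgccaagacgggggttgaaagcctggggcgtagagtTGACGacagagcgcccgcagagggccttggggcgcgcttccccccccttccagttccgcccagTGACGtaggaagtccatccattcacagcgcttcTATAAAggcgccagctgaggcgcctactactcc
Jun promoter: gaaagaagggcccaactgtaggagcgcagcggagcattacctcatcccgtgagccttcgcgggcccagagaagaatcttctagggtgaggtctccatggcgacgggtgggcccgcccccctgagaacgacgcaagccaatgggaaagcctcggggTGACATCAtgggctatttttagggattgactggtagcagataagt
Junb promoter: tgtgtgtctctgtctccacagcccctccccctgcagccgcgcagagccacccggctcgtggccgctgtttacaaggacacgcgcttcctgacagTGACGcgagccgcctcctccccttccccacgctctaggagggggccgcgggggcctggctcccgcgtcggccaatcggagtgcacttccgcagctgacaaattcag

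RefSeq gave a window of 300 bases around the start for 8 of the 9 genes, Fosl1 being the other. TGACG, searched on both strands, was in 5 of the 8 windows (Fos, Fosb, Junb, Batf and Atf3) and in 20.8% of all 32851 windows of that length. Fos held it at 2 places, from -129 and from -66, counted from the start base as 0. TATAAA was in 2 of the 8, Fos at -33 and Junb at 0 and so just past the printed stretch, against 13.6% of all windows. TGACATCA, a motif added after the Jun sequence had been seen, was in the Jun window at -45 and in 3.62% of all windows. The full CRE TGACGTCA was in 0 of the 8 and in 1.79% of all windows, the TRE TGANTCA in 0 of the 8 and in 7.81%, and the CArG box bound by serum response factor in 0 of the 8 and in 1.63%. TGACG is part of TGACGTCA, so hits to these can overlap. A match is a run of letters in this window and was not tested as a binding site. An element outside the window would be missed, so a count of 0 speaks only for these windows. The RefSeq starts of Atf3, Batf, Fosb, Fosl2, Junb and Jund also differ from the GENCODE gene starts. For Junb, on the minus strand, the RefSeq start is base 84978748 and the GENCODE start base 84978718. Its TATAAA, at the RefSeq start, thus lies before the GENCODE start.

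The libraries differed in ways that bear on each value. HFD libraries held 14437531 to 16740374 counts, HFD+MGIG libraries 2214367 to 4904167. Genes of families that are silent in macrophages (Olfr, Vmn1r, Vmn2r, Tas2r, Krtap and Defb) took 0.0624% to 0.280% of counts under HFD and 2.93% to 6.42% with MGIG, with the top value in HFD+MGIG 2. From them a background bound was set for every gene and library, which is the gene's exon length times the 90th percentile, over the silent families, of counts per kb of exon. Macrophage markers summed to 13726 to 15720 CPM (counts scaled to the same library total) under HFD and to 5794 to 14750 with MGIG, and 0 of 12 were called in either direction by edgeR scaled over all filtered genes. Endothelial markers summed to 1858 to 2244 CPM against 408 to 732, and 8 of 8 were lower. Of these 8, 3 had an HFD+MGIG mean at or under their bound. In that fit 17.8% of all genes tested were lower and 43.0% higher.

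Fos, the founding Fos protein and partner of Jun, was the most abundant member. It stood at 5143, 4733 and 4213 CPM in HFD 1, 2 and 3 and at 3785, 1573 and 2660 CPM in HFD+MGIG 1, 2 and 3. The groups did not overlap, and HFD+MGIG 2 was the lowest library. Per kb of exon, Fos ranked 16 to 17 among protein-coding genes in HFD and 17 to 24 in HFD+MGIG.

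Jun, which can pair with itself as well as with Fos, stood at 3158, 2655 and 2495 CPM under HFD and at 2457, 863 and 2354 CPM with MGIG. The groups were apart by the narrow gap between 2495 and 2457. Junb, a Jun relative with weaker activity as a pair with itself, stood at 2174, 1745 and 1559 CPM against 1342, 463 and 1265 CPM. Jund, the Jun protein that is usually made without a stimulus, stood at 1268, 864 and 870 CPM against 626, 224 and 767 CPM. In all 3 Jun genes HFD 1 was the highest library and HFD+MGIG 2 the lowest. Jund shares 877 of its 1668 exon bases with the antisense gene Gm11175, which stood at 0.0462 CPM under HFD and 0 with MGIG. The sources do not state whether the counting used strand, so reads of the 2 genes cannot be told apart. Jun shares 232 exon bases with its antisense gene Junos and Junb 173 with Prdx2, both on the other strand.

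Atf3, a stress-induced bZIP protein that can repress inflammatory genes, stood at 2084, 2185 and 2307 CPM under HFD and at 1781, 724 and 1251 CPM with MGIG. The groups did not overlap. HFD+MGIG 2 was again the lowest, while HFD 3 and not HFD 1 was the highest.

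Fosb and Fosl2, also known as Fra-2, are Fos relatives. Fosb stood at 443.5, 451.9 and 447.2 CPM in HFD and at 219.5, 90.8 and 218.2 CPM in HFD+MGIG. Fosl2 stood at 131.3, 125.7 and 127.7 CPM against 61.2, 33.9 and 51.4 CPM. In both, the HFD libraries were close together and every HFD+MGIG library lay well under them. The HFD+MGIG mean of Fosb was 4.41 times its background bound of 39.99 CPM, but in HFD+MGIG 2 it was 1.545 times the bound of that library. That of Fosl2, whose exons span 9680 bases, was 48.8 CPM and so under its bound of 62.0 CPM.

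Batf, a bZIP protein that pairs with Jun proteins and acts with IRF proteins in immune cells, stood at 22.5, 22.0 and 22.1 CPM in HFD and at 24.1, 22.1 and 25.5 CPM in HFD+MGIG. These ranges overlapped, and the HFD+MGIG mean was 2.65 times its bound of 9.01 CPM, with 1.67 times in HFD+MGIG 2. Fosl1, or Fra-1, was the least abundant, at 10.2, 8.10 and 12.3 CPM under HFD and 6.51, 0.903 and 15.7 CPM with MGIG. The last 3 rest on 27, 2 and 77 counts, and their mean of 7.70 CPM was under the bound of 13.02 CPM. Fosl1 also shares 1163 of its 2033 exon bases with Ccdc85b on the other strand, which stood at 24.96 ± 4.3 CPM under HFD and 14.6 ± 5.19 CPM with MGIG (SD, n = 3 each). No separate statement on Fosl1 can be drawn at this depth.

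**Figure D1:**
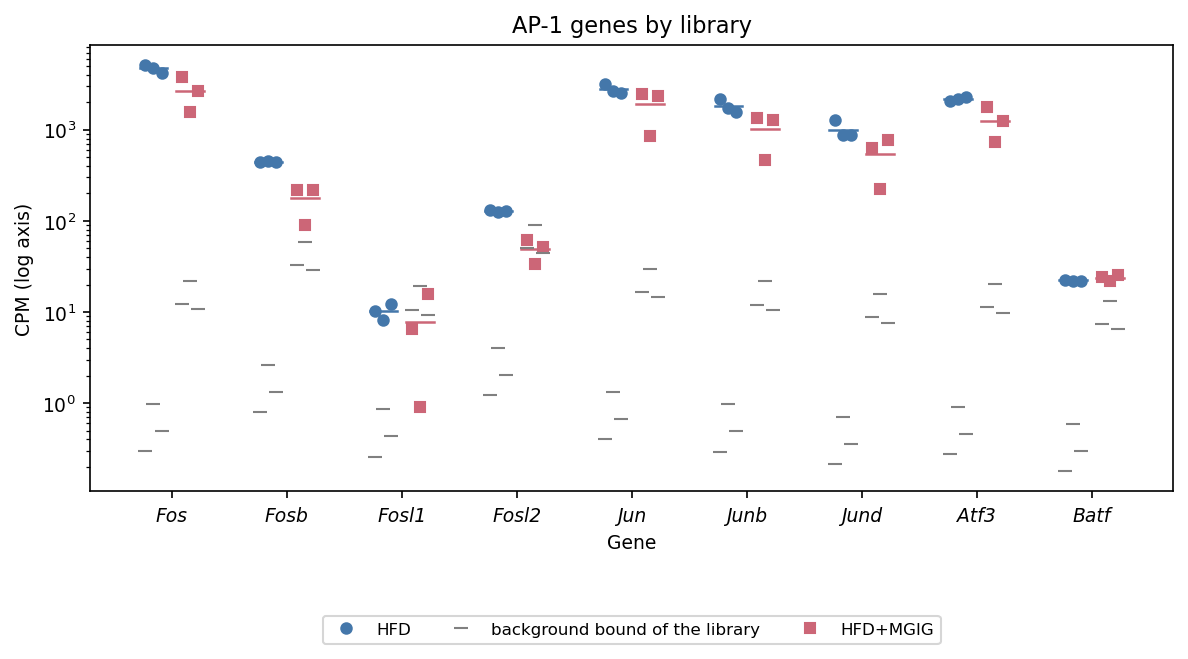
CPM (log axis) of the 9 AP-1 genes in the 3 HFD libraries (circles) and the 3 HFD+MGIG libraries (squares). Coloured lines are group means and grey dashes the background bound of each library. Fos, Jun, Junb, Jund and Atf3 lie far above the dashes in every library, while Fosl2 and Fosl1 reach them in HFD+MGIG.

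Divided by exon length, so that genes can be set beside one another, the order in HFD was Fos at 1997 ± 198 CPM per kb, Atf3 at 1018 ± 52.0, Jun at 868 ± 109, Junb at 793 ± 137 and Jund at 600 ± 139 (mean ± SD, n = 3). Fosb followed at 71.7 ± 0.675, Batf at 15.8 ± 0.188, Fosl2 at 13.2 ± 0.292 and Fosl1 at 5.02 ± 1.03 CPM per kb. Atf3 and Jun, Jun and Junb, and Junb and Jund differed by less than the sum of their SDs. In HFD+MGIG the order was Fos at 1136 ± 470, Jun at 593 ± 280, Atf3 at 581 ± 245, Junb at 445 ± 211 and Jund at 323 ± 169 CPM per kb. Fosb stood at 28.2 ± 11.9, Batf at 17 ± 1.201, Fosl2 at 5.04 ± 1.43 and Fosl1 at 3.79 ± 3.68 CPM per kb. Here neighbours from Fos down to Jund were within the sum of their SDs, as were Fosb and Batf, and Fosl2 and Fosl1. These SDs include shifts that the genes of a library share, so they do not settle the order within a library. In every library of both groups Fos lay above Jun and Atf3, both of these above Junb, and Junb above Jund. Jun and Atf3 changed places between libraries in both groups, and Fosb and Batf did so in HFD+MGIG.

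Together the 9 genes took 1.44%, 1.28% and 1.21% of all counts in HFD and 1.03%, 0.400% and 0.861% with MGIG, so that every HFD library lay higher. The means were 1.31 ± 0.122% and 0.764 ± 0.326%, with p = 0.1 in a two-sided exact permutation test, which is the smallest p that 3 libraries against 3 allow. A lower share of counts in bulk RNA can come from fewer cells of a type or from less RNA per cell. It can also come from more counts on other genes, such as the silent families described above. These cannot be told apart here and were not tested.

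Scaled over all filtered genes, Fosb and Fosl2 fell in HFD+MGIG, and no member rose. Fosb fell by 1.61 on the log2 scale (SE 0.494, edgeR adjusted p = 0.0139), which is 3.06-fold. Fosl2 fell by 1.67 (SE 0.378, edgeR adjusted p = 0.00229). So 2 of 9 members were called lower, against 17.8% of all genes tested. Among the 2604 genes whose background bound was small beside their level, averaged over all libraries, the share was 43.0%. The 0 members called higher stand beside 43.0% of all genes tested and 2.11% of the 2604. In CPM, 7 of 9 members were lower with groups apart, against 23.7% of the filtered genes and 68.0% of those 2604. The members' counts are thus near or below what those 2604 genes show.

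The more abundant members had log2 differences of like size that did not pass the edgeR test. They were -1.08 for Fos (SE 0.572, edgeR adjusted p = 0.114), -1.08 for Atf3 (SE 0.547, adjusted p = 0.101), -1.09 for Junb (SE 0.567, adjusted p = 0.109), -1.14 for Jund (SE 0.561, adjusted p = 0.0920) and -0.81 for Jun (SE 0.578, adjusted p = 0.231). The median of the 9 was -1.08, beside -0.91 for the 2604 genes and 0.38 for all genes tested. These calls turned on HFD+MGIG 2, the shallowest library. Without it 6 members were lower by edgeR, Fos at -0.78 (adjusted p = 0.00883), Atf3 at -0.77 (adjusted p = 0.00973), Junb at -0.73 (adjusted p = 0.0081) and Jund at -0.77 (adjusted p = 0.00742) joining Fosb and Fosl2. In that fit 22.2% of all genes and 72.2% of the 2604 were lower, so 6 of 9 is near the share of the latter. With all libraries DESeq2 and limma voom also called 6 members lower, where they called 20.2% and 29.8% of all genes lower. Limma voom was run with library quality weights, so the libraries need not count equally in it. Of the 2604 genes, DESeq2 called 1635 lower and limma voom 2116. Fosl1 and Batf were at -0.59 (edgeR adjusted p = 0.405) and -0.20 (edgeR adjusted p = 0.530).

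Because counts on silent families differed between the groups, the members were also fitted with factors taken from the 2604 background-limited genes. Each codes for protein in 2 or more exon blocks, and its mean bound is no more than 0.25 of its mean CPM. Both means are over all 6 libraries, so a gene can enter through its level in HFD alone. Fos, Fosb, Junb, Atf3 and Batf are among the 2604. In HFD+MGIG, Batf had a mean of 23.9 CPM beside a bound of 9.01 CPM, and Nfe2l1, also in the set, 52.7 beside 34.9 CPM. The set thus favours genes that are high in HFD, which bears on its shares called lower. On that scale Fosb fell by 0.71 (SE 0.165, edgeR adjusted p = 0.00977) and Fosl2 fell by 0.71 (SE 0.137, edgeR adjusted p = 0.00579), while Batf rose by 0.85 (SE 0.287, edgeR adjusted p = 0.0400). Of all genes tested, 1.82% were called lower and 50.1% higher. Among the 2604 genes 8.22% were lower and 7.10% higher.

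The other members lay close to the scale's own centre, with SEs that leave room for differences of either sign. Fos was at -0.17 (SE 0.161, edgeR adjusted p = 0.427), Atf3 at -0.16 (SE 0.157, adjusted p = 0.417), Jun at 0.06 (SE 0.211, adjusted p = 0.830), Junb at -0.22 (SE 0.225, adjusted p = 0.441) and Jund at -0.29 (SE 0.285, adjusted p = 0.440). Fosl1 was at 0.18 with an SE of 0.733. The median of the 9 was -0.17, beside 0.03 for the 2604 genes and 1.55 for all genes tested. The Fosb fall lost its call with the 90th percentile background subtracted, where its value was -0.77 with an SE of 0.328 (edgeR adjusted p = 0.109). With trends on GC content and length removed it was -0.34 and kept its call (edgeR adjusted p = 0.0364), while Fosl2 was at -0.40 and lost it (edgeR adjusted p = 0.0843). Fosl2 moved the other way with background subtracted, to -1.27 with the median (edgeR adjusted p = 0.0251) and to -3.59 with the 90th percentile (edgeR adjusted p = 0.0373). Counts under the subtracted background were set to 0, as in HFD+MGIG 2, where Fosl2 had 33.9 CPM against a bound of 91.1. HFD+MGIG 1 and 3 had 61.2 and 51.4 CPM against bounds of 50.6 and 44.3. The value of -3.59 thus rests on little signal in HFD+MGIG. Jun was called higher with the 90th percentile background subtracted, at 0.53 (edgeR adjusted p = 0.0227). The Batf call was lost in 10 of 14 alternatives (edgeR adjusted p from 0.0527 to 0.255). Its value changed little when the call was lost on leaving out a library, being 0.84 without HFD 1 (edgeR adjusted p = 0.132), 0.84 without HFD 2 (edgeR adjusted p = 0.143), 0.84 without HFD 3 (edgeR adjusted p = 0.137) and 0.92 without HFD+MGIG 3 (edgeR adjusted p = 0.0734).

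On this scale DESeq2 called 2 members lower and 1 higher, beside 2.66% and 55.4% of all genes. Limma voom called 4 lower (Fosb, Fosl2, Fos and Atf3) and 3 higher (Jun, Fosl1 and Batf), beside 4.33% and 59.8% of all genes. Of the 2604 genes, DESeq2 called 259 lower and 239 higher, and limma voom 414 lower and 432 higher.

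**Figure D2:**
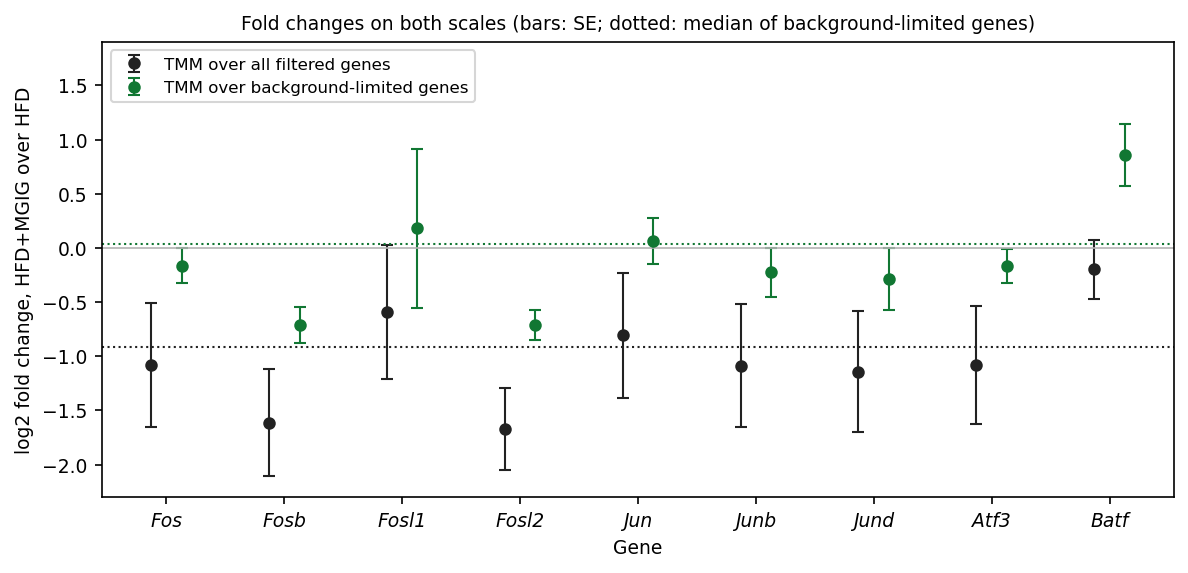
Log2 fold change of HFD+MGIG against HFD (bars are SEs from the edgeR fit) for the 9 AP-1 genes, on the scale of all filtered genes and on that of the background-limited genes. Every point moves up on the second scale; Fosb and Fosl2 stay below 0 at -0.71 each, and Batf reaches 0.85.

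A share within the family does not depend on how libraries are scaled, but background counts still enter it, most for the members near their bound. Fos held 36.7%, 38.4% and 36.2% of the summed CPM per kb in HFD and 38.1%, 40.7% and 32.1% in HFD+MGIG, and the ranges overlapped (difference of means -0.165 percentage points, exact permutation p = 0.9, adjusted over the 9 genes p = 1). Atf3 held 19.1 ± 2.71% and 18.8 ± 2.08%, Junb 14.7 ± 1.10% and 13.9 ± 1.68%, and Jund 11.1 ± 1.51% and 10.0 ± 2.64% (SD, n = 3 each). Jun held 16.1 ± 0.454% and 18.5 ± 2.27% (exact permutation p = 0.2, adjusted p = 0.45). The log2 ratio of summed Fos-family to summed Jun-family level was -0.11 ± 0.12 in HFD and -0.15 ± 0.38 in HFD+MGIG (exact permutation p = 0.9).

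The shares that did not overlap were those of Fosb, Fosl2 and Batf. Fosb held 1.19%, 1.38% and 1.45% in HFD and 0.832%, 0.884% and 0.991% in HFD+MGIG. Fosl2 held 0.247 ± 0.0194% against 0.171 ± 0.0361%, and Batf 0.295 ± 0.0246% against 0.625 ± 0.292%. Each had an exact permutation p of 0.1, the smallest possible, and 0.3 after adjustment over the 9 genes, so none passed. In CPM Batf was near level, at 22.2 ± 0.264 and 23.9 ± 1.69, while the 9 genes together took less of the counts with MGIG. Its top share, 0.957%, was in HFD+MGIG 2, where Batf was 1.67 times its bound. The HFD+MGIG mean of Fosl2 was under its bound. Fosl1 held 0.0942 ± 0.0246% and 0.107 ± 0.0998%.

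**Figure D3:**
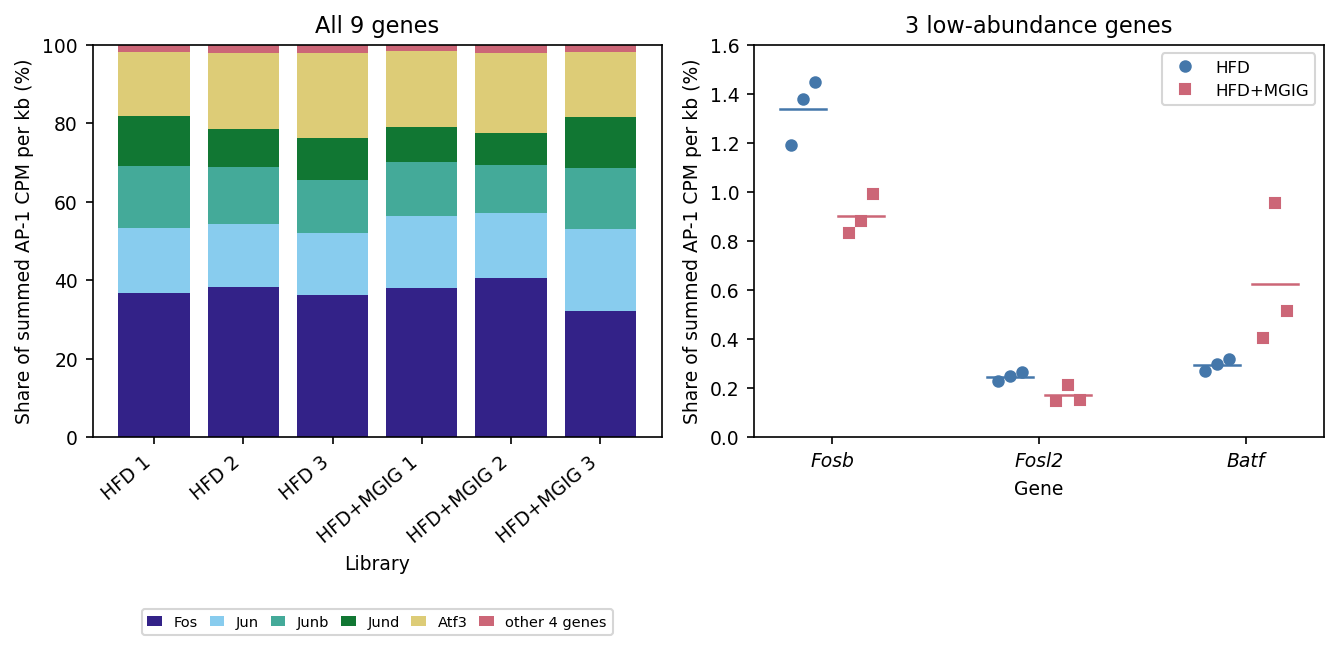
Left, the share (%) of each gene in the summed CPM per kb of the 9 AP-1 genes, by library. Right, the same share for Fosb, Fosl2 and Batf, each point a library and each line a group mean. The 5 abundant genes keep similar shares across the 6 libraries. The shares of Fosb and Fosl2 are lower and that of Batf higher in every HFD+MGIG library, although the CPM of Batf overlapped between the groups.

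Some ratios of the members' CPM, not divided by exon length and chosen after their values had been seen, are given as a description. Fos was 2.47, 2.17 and 1.83 times Atf3 in HFD and 2.13, 2.17 and 2.13 times in HFD+MGIG. This ratio varied more among the HFD libraries. Fos was 1.63, 1.78 and 1.69 times Jun in HFD and 1.54, 1.82 and 1.13 times in HFD+MGIG. These ranges overlapped (exact permutation p = 0.5). Junb was 0.688, 0.657 and 0.625 of Jun in HFD and 0.546, 0.537 and 0.537 in HFD+MGIG, so every HFD+MGIG library was lower. Fosb was 0.0960 ± 0.00997 of Fos in HFD and 0.0659 ± 0.0140 in HFD+MGIG, also with groups apart. For Junb to Jun and for Fosb to Fos the exact permutation p was 0.1, the smallest possible.

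The genes around AP-1 were taken as lists by role. Their counts are to be read beside those over all genes, of which edgeR called 17.8% lower and 43.0% higher over all filtered genes, and 1.82% lower and 50.1% higher on the scale of the background-limited genes. Of the 2604, 43.0% were lower and 2.11% higher on the first scale, and 8.22% and 7.10% on the second. In the MAP kinase cascades that switch AP-1 on, 11 of 24 tested genes were lower and 1 higher by edgeR over all filtered genes (median log2 difference -0.96). On the scale of the background-limited genes 1 was lower and 5 were higher (median 0.03). Mapk3, which encodes the kinase ERK1, fell by 1.29 on the first scale (edgeR adjusted p = 0.0103) and was at -0.36 on the second (edgeR adjusted p = 0.137). Mapk8, which encodes the Jun kinase JNK1, was called higher on both, but its HFD+MGIG mean of 57.9 CPM was under its bound of 73.3 CPM. Map2k6, Map3k4 and Braf, called higher on the second scale, also had HFD+MGIG means under their bounds. Map3k2, called higher on that scale at 2.08 (edgeR adjusted p = 0.00932), had an HFD+MGIG mean of 163.6 CPM, over its bound of 89.4 CPM. Map3k3, an upstream kinase, was the gene called lower on the second scale, at -0.47 (edgeR adjusted p = 0.0431).

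Of 12 MAP kinase phosphatases, which switch these kinases off, 6 were lower and 0 higher on the first scale (median -1.005), and 1 was lower and 0 higher on the second (median -0.02). That gene was Dusp6, a phosphatase of ERK, which stood at 296 ± 15.99 CPM under HFD and 128 ± 52.9 CPM with MGIG and fell by 0.57 (SE 0.153, edgeR adjusted p = 0.0161). Dusp1, an immediate early gene itself, stood at 3826 ± 508 and 2311 ± 846 CPM and was at -0.07 (edgeR adjusted p = 0.726). Of 16 serum response and CREB regulators of Fos, 8 were lower and 1 higher on the first scale (median -0.80), and 0 lower and 3 higher on the second (median 0.24). Those 3 were Creb1, Crtc3 and Rps6ka5, and each had an HFD+MGIG mean under its bound. Crtc2, a CREB coactivator with its mean over its bound, fell by 1.42 on the first scale (edgeR adjusted p = 0.0115) and was at -0.52 on the second (edgeR adjusted p = 0.0930).

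Of 23 other bZIP partners and relatives, 11 were lower and 1 higher on the first scale (median -0.97), and 1 was lower and 3 were higher on the second (median -0.02). Nfe2l1, a stress and proteasome regulator, fell on both, with log2 differences of -1.86 (edgeR adjusted p = 0.00378) and -0.97 (edgeR adjusted p = 0.00555), from 160 ± 9.51 to 52.7 ± 24.2 CPM. Jdp2, which pairs with Jun proteins and represses AP-1, fell by 0.97 on the first scale (edgeR adjusted p = 0.0421) and was at -0.02 on the second (edgeR adjusted p = 0.908). The 1 gene called higher on the first scale, Nrl, had an HFD+MGIG mean under its bound.

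Of 22 textbook AP-1 target genes, 10 were lower and 0 higher on the first scale (median -1.07), and 1 lower and 3 higher on the second (median -0.03). Il6, a cytokine, fell by 1.44 on the first scale (edgeR adjusted p = 0.0122), from 413 ± 67.7 to 187 ± 29.3 CPM, and was at -0.41 on the second (edgeR adjusted p = 0.125). On the second scale the monocyte attractant Ccl2 rose by 0.75 (SE 0.165, edgeR adjusted p = 0.00817) and the haem-degrading enzyme Hmox1 by 0.69 (SE 0.187, edgeR adjusted p = 0.0186). In CPM they were nearly level, Ccl2 at 444 ± 46.5 and 463 ± 137 and Hmox1 at 1129 ± 142 and 1168 ± 486. Vegfa, the vascular growth factor called lower on both scales, had an HFD+MGIG mean under its bound.

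The other genes known to be induced by tissue dissociation, 39 of them tested, gave 16 lower and 0 higher on the first scale (median -1.18), and 7 lower and 2 higher on the second (median -0.27). Of the background-limited genes, 43.0% were lower on the first scale and 8.22% on the second. The 7 were Myc, Ccn1, Socs3, Egr2, Sgk1, Rhob and Nr4a1. Among these Socs3, an inhibitor of cytokine signalling, fell by 0.92 (SE 0.183, edgeR adjusted p = 0.00631), Ccn1, a matrix signalling protein, by 0.81 (SE 0.180, edgeR adjusted p = 0.00859) and the kinase Sgk1 by 0.71 (SE 0.146, edgeR adjusted p = 0.00663). The 2 higher were the chaperone genes Hspe1 at 0.67 (edgeR adjusted p = 0.0202) and Hsp90aa1 at 0.52 (edgeR adjusted p = 0.0278). Egr1, an early zinc finger factor, stood at 3262 ± 188 and 1654 ± 770 CPM and was at -0.37 (edgeR adjusted p = 0.158). Dissociation time and temperature are not in the labels, and their part in the AP-1 values was not tested.

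**Figure D4:**
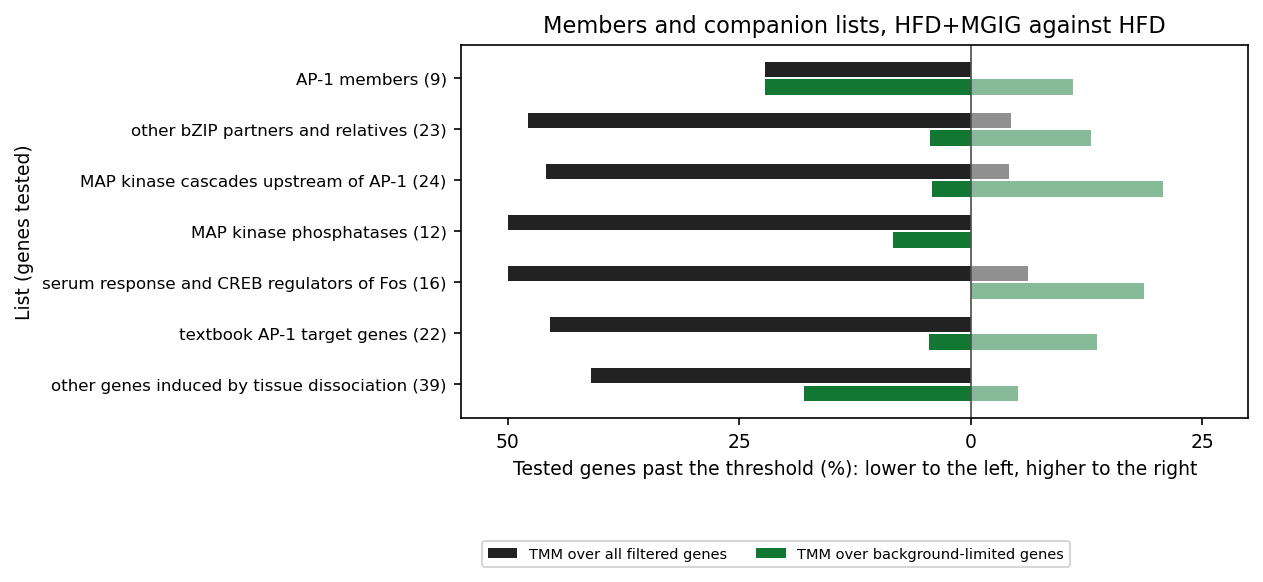
Share (%) of the tested genes of each list past the threshold in the edgeR test, lower to the left in dark and higher to the right in light colours, on the scale of all filtered genes (black and grey) and of the background-limited genes (green). On the second scale the lower share of every companion list shrinks, to 7 of 39 genes for the dissociation list and to 0 of 16 for the serum response and CREB list.

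Some markers of other cell types were also called between the groups, in both directions. On the second scale edgeR called 1.82% of all genes tested lower and 50.1% higher. By edgeR on the second scale, 7 of 8 markers of endothelium were lower, 3 of 7 fibroblast markers were lower and 1 higher, 2 of 6 pericyte and smooth muscle markers lower and 2 of 6 adipocyte markers lower. Their summed levels in HFD and HFD+MGIG were 2486 to 3790 and 1237 to 1844 CPM for fibroblasts, 1195 to 1848 and 439 to 792 CPM for pericytes and smooth muscle, and 3519 to 5589 and 1503 to 2149 CPM for adipocytes. In the other direction, 3 of 9 T and NK cell markers were higher. So were 1 of 4 B cell and 1 of 4 neutrophil markers, and 0 were lower. The HFD+MGIG mean was at or under the bound for 8 of the 9 T and NK cell markers and 2 of the 4 B cell markers. It was also so for 3 endothelial, 2 fibroblast, 2 pericyte and smooth muscle, 2 adipocyte, 1 neutrophil and 1 mast cell marker. Of the 12 macrophage markers 2 were higher and 0 lower, and of the 5 mast cell markers 0 were called. T and NK cell, B cell, neutrophil and mast cell markers each summed to at most 257 CPM in any library. None of the markers was at 0 in HFD. The part of other cells in the members' differences was not tested.

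Across the 6 libraries the genes most like the mean member profile, out of 2599 background-limited genes, were Sdhc (Pearson r = 0.995), Arf6 (0.989), Slk (0.987), Gosr2 (0.984) and Coro1b (0.979), and 76 genes had r above 0.9. The 6 points share their depth and background, so this is a description only. The members' own r with that mean was 0.958 for Jund, 0.935 for Junb, 0.909 for Fosl1, 0.794 for Jun, 0.764 for Fosb, 0.440 for Fos, 0.388 for Fosl2, 0.387 for Atf3 and -0.765 for Batf. Fosl1 weighed heavily in the mean, with a centred log2 level of -1.88 in HFD+MGIG 2, where it had 2 counts, and 1.35 in HFD+MGIG 3. With Fosl1 left out, an alternative added after the data were seen, the 5 most like genes were Atxn10 (0.994), Eif4h (0.991), Creld2 (0.990), Acaa2 (0.987) and Xbp1 (0.971), and Sdhc ranked 13 with r = 0.957. The names on this list therefore depend on Fosl1. The mean profile was lowest in HFD+MGIG 2 both with Fosl1 (-0.44) and without it (-0.26).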

How the data were processed

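RNA sequencing libraries were made with SMART-Seq v4 from 10 ng of RNA, per the labels' protocols. Per the submitters' processing notes, fastp, HISAT2, StringTie and build mm10 were used; what counted the reads, on which strand and in which versions, is not given in the sources used. The authors deposited estimated counts per gene, 33.3% to 41.8% of detected values being fractional, and these were rounded to whole numbers here. GENCODE M21 gave symbols and exon lengths for 51884 of 57180 identifiers. Groups were compared by the quasi-likelihood test of edgeR (version 4.0.16, R 4.3.3; robust, filterByExpr, TMM, group only) on all 6 libraries, Benjamini-Hochberg adjusted over all genes, threshold 0.05, fitted with TMM factors over all filtered genes and again with factors from the background-limited genes. SEs were |log2 fold change| divided by the square root of F. Alternatives used DESeq2 1.42.0 and limma 3.58.1 (voom with library quality weights), other scalings, filters, background subtraction, a replicate block and each library left out. Fits were tested on counts simulated from the HFD proportions at the real library sizes. That simulation held no added background in HFD+MGIG, so it does not cover this feature of the data. Promoters came from RefSeq (GRCm38.p6).

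The members, lists, background measure and tests were chosen with earlier results of these data known. All 9 members are named. Of each list, up to 3 genes with the smallest p among those called on each scale were eligible. Map3k3, Map3k4, Braf, Jdp2, Dusp1, Hspe1, Hsp90aa1, Egr1, Egr2, Rhob and Nr4a1 were named after their values were seen. Likeness was Pearson's r with the mean of the members' centred log2 CPM (prior count 2) on the second scale.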

Additional observations from a re-analysis of the deposited data

How the results depend on the processing

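Of the 9 members, the 2 called over all filtered genes became 6 with DESeq2, 6 with limma voom and 2 to 6 with each library left out, and Fosb and Fosl2 kept their calls in all 14 alternatives. On the scale of background-limited genes the 3 called became 1 when only those genes were tested (4 members then have no value), 1 with GC and length trends removed, 7 with limma voom and 2 to 3 with each library left out. The log2 ratio of Fos to Jun family differed by -0.04 between groups, and by -0.21 to 0.17 with each library left out. Signs turned over all filtered genes for Fosl1 with limma voom (0.11) and for Batf with library totals (0.13), a 5 CPM minimum (0.21) or protein-coding genes only (0.23). On the other scale, subtracting the 90th percentile background gave Fos 0.36, Atf3 0.35, Junb 0.23, Jund 0.14 and Fosl1 -1.14, with Jun called higher at 0.53, and subtracting the median gave Fosl1 -0.19. Limma voom gave Junb 0.0061 and Jund 0.12, and trend removal gave Jund 0.0113. With each library left out Fosl1 ran from -0.85 to 0.61 and Jun from -0.0674 to 0.243. The share differences, in percentage points, ran from -2.03 to 2.27 for Fos, -0.0429 to 0.0532 for Fosl1, -1.66 to 0.0222 for Junb and -1.68 to 1.02 for Atf3, and the Fosl1 difference was -0.0178 with background subtracted. The cause of these turns was not tested.

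The replicate numbers showed no clear pairing of the libraries. Deviations of same-numbered libraries correlated at -0.138, 0.117 and 0.204, and not every library was most like its own number. With 3 libraries per group this check cannot exclude a pairing. The replicate block called 3 members over all filtered genes, adding Fosl1 (edgeR adjusted p = 0.0485), and 2 on the other scale, where Fosl1 was at -0.17 and Batf, at 0.82, lost its call (edgeR adjusted p = 0.0666).

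Genes called higher over all filtered genes went from 9902 to 18271 without a filter, 4581 with a 5 CPM minimum and 4789 among protein-coding genes. Genes called lower went from 4109 to 2426 with library totals, 1572 with the 5 CPM minimum, 1601 among protein-coding genes, 6873 with limma voom and 2126 to 5559 with a library left out. On the other scale the 11557 higher became 117 in the set alone, 4214 with median and 1594 with 90th percentile background subtracted, and the 419 lower became 163, 1526 and 6506, 999 with limma voom and 197 to 779 with a library left out. With a library left out, genes called lower over all filtered genes ran from 8 (without HFD+MGIG 3) to 30 in the dissociation list, 5 (without HFD 3) to 17 in the MAP kinase list, 4 (without HFD+MGIG 3) to 8 among phosphatases, 6 (without HFD 2, HFD 3 or HFD+MGIG 3) to 17 in the bZIP list, 4 (without HFD 3) to 10 in the serum response list and 4 (without HFD+MGIG 3) to 12 among targets, each highest without HFD+MGIG 2. On the other scale the dissociation list had 3 (without HFD 2) to 9 lower, and the serum response list 0 (without HFD 1) to 6 higher (without HFD+MGIG 1). With 2214367 counts in HFD+MGIG 2, Fosl1 and other genes near their bound could not be resolved.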
